A study of Homo sapiens with 8 samples.

Results

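MGMT, TIMP3, CACNA1G, SOCS1, RUNX3, NEUROG1, THBS1, HLTF and GATA4 are genes whose promoter CpG islands are often methylated in colorectal cancer, and several of them serve as markers of the CpG island methylator phenotype (CIMP). Their RNA was measured in DLD1 cells, an established colorectal adenocarcinoma line that the study describes as CIMP-high. The probes were chosen by name: every non-control probe of the arrays annotated with the symbol of a marker gene was taken, which gave 15 probes for 9 genes, of 50599 non-control probes and 36337 gene names in all. MGMT, TIMP3, SOCS1, NEUROG1 and HLTF had 1 probe each, CACNA1G, RUNX3 and THBS1 had 2 each, and GATA4 had 4.

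The cells received a control siRNA (siCONT) or siRNAs against UHRF1 (siUHRF1) by transfection for 48 h, and then received 300 nM trichostatin A (TSA) or the solvent ethanol (mock) for another 24 h. This gave 4 groups of 2 single-colour arrays: siCONT with mock, siUHRF1 with mock, siCONT with TSA, and siUHRF1 with TSA (the combination). The arrays of a siUHRF1 group carried different siRNAs, siUHRF1-1 and siUHRF1-2, whereas those of a siCONT group were numbered replicates. All groups share the transfection, the single cell line and the medium, and no untransfected cells were measured.

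UHRF1 binds hemimethylated DNA at the replication fork and brings in the maintenance methyltransferase DNMT1, so cells that lose it dilute their DNA methylation as they divide. TSA inhibits histone deacetylases and raises histone acetylation. Dense methylation of a promoter CpG island is known to go along with a silent gene, held shut both by the DNA mark and by deacetylated histones. The arrays report RNA and carry no measurement of methylation.

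The markers are promoter CpG island genes, so the sequence upstream of their start sites is shown for those with RNA that could be measured in at least 1 group and for which a promoter was listed. The sequences are the 250 bases before the annotated start in RefSeq's GRCh38.p14 table, written 5′ to 3′ on the strand of the gene, with every CpG (the letters CG, which read the same on both strands) in capitals.
MGMT (chr10:129466991-129467240, plus strand): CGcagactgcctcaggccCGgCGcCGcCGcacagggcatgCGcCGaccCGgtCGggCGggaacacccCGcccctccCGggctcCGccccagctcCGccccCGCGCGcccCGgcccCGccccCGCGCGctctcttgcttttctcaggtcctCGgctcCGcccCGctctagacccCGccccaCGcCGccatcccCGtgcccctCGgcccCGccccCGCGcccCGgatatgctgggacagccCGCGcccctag
HLTF (chr3:149086534-149086783, minus strand): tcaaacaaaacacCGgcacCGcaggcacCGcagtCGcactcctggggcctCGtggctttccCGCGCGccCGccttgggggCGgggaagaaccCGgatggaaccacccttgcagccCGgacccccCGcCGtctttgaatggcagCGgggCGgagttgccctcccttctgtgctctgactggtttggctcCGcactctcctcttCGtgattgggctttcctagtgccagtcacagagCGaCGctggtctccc
TIMP3 (chr22:32801455-32801704, plus strand): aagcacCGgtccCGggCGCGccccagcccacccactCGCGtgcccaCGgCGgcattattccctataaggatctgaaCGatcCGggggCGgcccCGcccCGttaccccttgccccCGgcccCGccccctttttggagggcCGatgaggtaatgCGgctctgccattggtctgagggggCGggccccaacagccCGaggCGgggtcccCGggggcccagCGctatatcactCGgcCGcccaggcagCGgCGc
THBS1 (chr15:39580829-39581078, plus strand): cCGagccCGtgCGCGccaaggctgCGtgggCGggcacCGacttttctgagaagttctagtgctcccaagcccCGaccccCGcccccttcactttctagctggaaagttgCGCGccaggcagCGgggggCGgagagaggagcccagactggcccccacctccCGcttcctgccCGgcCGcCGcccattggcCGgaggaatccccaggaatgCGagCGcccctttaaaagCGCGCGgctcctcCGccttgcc
SOCS1 (chr16:11256205-11256454, minus strand): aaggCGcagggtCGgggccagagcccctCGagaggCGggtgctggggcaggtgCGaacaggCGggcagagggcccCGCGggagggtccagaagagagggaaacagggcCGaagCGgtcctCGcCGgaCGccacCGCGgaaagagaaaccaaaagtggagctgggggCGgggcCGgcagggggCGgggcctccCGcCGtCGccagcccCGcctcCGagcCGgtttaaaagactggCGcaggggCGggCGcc

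RefSeq windows of 300 bases, running from 250 bases before to 50 after the start, were listed for 7 of the 9 genes. The MGMT window was the densest, with 45 CpGs and an observed over expected CpG ratio of 1.06, and 96.5% of the 35114 RefSeq promoters held fewer. RUNX3, which has 2 promoters in the table, followed with 38 CpGs in the richer window and had 15 in the poorer. NEUROG1 had 35 CpGs, SOCS1 33, TIMP3 31, THBS1 29 and HLTF 27. The median of all RefSeq promoters was 14 CpGs, and 96.0% held at least 1. CACNA1G and GATA4 are named here without a promoter.

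**Figure D1:**
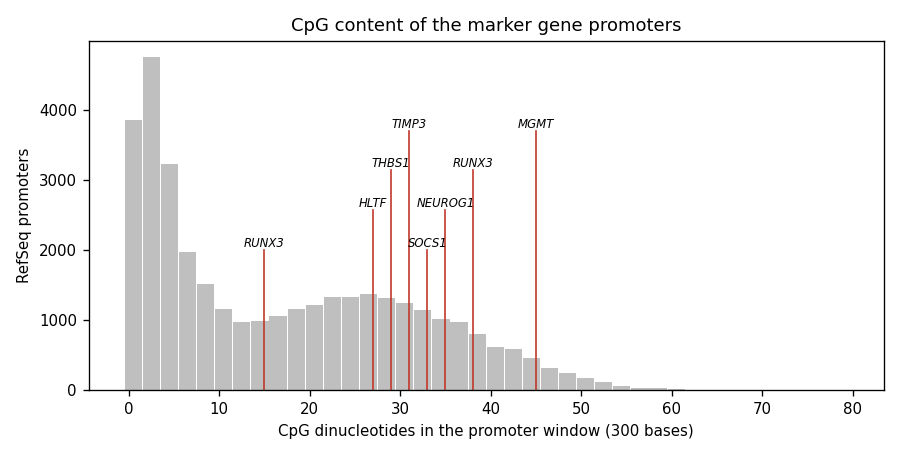
Number of CpG dinucleotides (x axis) in the 300-base promoter windows of RefSeq genes; grey bars count all 35114 promoters in steps of 2 CpGs, and each red line marks a promoter of a marker gene (line height has no meaning). All marker promoters except the poorer RUNX3 window (15 CpGs) hold 27 or more, against a median of 14.

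An expression level is given below as the log2 of a probe's background-subtracted intensity relative to the 75th percentile of its array, so that a step of 1 is a 2-fold difference. A probe was detected on an array where the scanner software flagged it as well above background. The lowest level at which any probe was so flagged lay between -3.79 and -3.37 on the 8 arrays. The siCONT arrays of an agent differed by 1.08 to 1.18 times the noise of repeated spots, against 10.4 to 13.4 times for the different UHRF1 siRNAs. They were therefore counted as 1 sample in each mean, which has no SD, and for every marker probe called, the adjusted p of the limma fit to all 8 arrays stands beside that of a fit to 6 samples with these arrays averaged. Nothing states that any arrays came from separate cultures, so p-values measure the spread between these samples, which may be technical. The slide held the mock arrays in its first row and the TSA arrays below them, so TSA and slide row cannot be told apart. In both rows the siCONT arrays lay in columns 1 and 2 and the siUHRF1 arrays in columns 3 and 4. UHRF1 depletion and slide column therefore cannot be told apart. Fewer expressing cells and less RNA per cell cannot be told apart in these bulk samples either.

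UHRF1 itself was lower in every siUHRF1 array. With probe A_23_P208880 the levels were 1.98 and 2.01 in siCONT with mock, 0.34 and -0.02 with siUHRF1-1 and siUHRF1-2 under mock, 1.04 and 1.01 in siCONT with TSA, and -1.55 and -2.14 with siUHRF1-1 and siUHRF1-2 under TSA. This left 31.9% and 24.8% of the siCONT level under mock, and 16.7% and 11.1% under TSA. UHRF1 fell under mock by 1.83 on the log2 scale (limma adjusted p = 0.012, and 0.252 with 6 samples) and in the combination by 3.84 (adjusted p = 0.00015, and 0.0074 with 6 samples). The level also lay 0.97 lower in siCONT with TSA than in siCONT with mock, which missed the 2-fold minimum (adjusted p = 0.0175), whereas the other UHRF1 probe, A_33_P3379454, fell by 1.13 (adjusted p = 0.0493, and 0.357 with 6 samples). All 10 colon epithelium markers were detected on every array, among them EPCAM, KRT20 and CDX2. Of the markers of other cell types, none of 5 fibroblast and 3 endothelial genes was detected on every array, and the leukocyte genes PTPRC and CD3E were detected on none. The summed intensity of a list ran over the arrays from 14.9 to 209 for fibroblast, 21.0 to 260 for endothelial and 65.0 to 337 for leukocyte genes, beside 219051 to 324349 for colon epithelium, and its part in the results was not tested.

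Most of the marker genes were not detected at the outset. In siCONT with mock, 3 of the 15 probes were detected, and they belonged to MGMT and THBS1 (2 of 9 genes). Of all probes, 43.3% and 43.4% were detected on these arrays, and 47.1% and 48.0% on the combination arrays. With UHRF1 depletion alone SOCS1 was detected as well on both arrays of the group, and HLTF on the siUHRF1-1 array. With TSA alone TIMP3, CACNA1G and SOCS1 were added on both arrays, so that 5 genes were detected. In siCONT with mock SOCS1, at -3.44 and -3.48, had lain just under the lowest detected levels of those arrays, -3.37 and -3.42. Its change was called with neither agent alone. In the combination MGMT, THBS1, CACNA1G, SOCS1 and HLTF were detected on both arrays, with 6 probes, and TIMP3 and RUNX3 on the siUHRF1-1 array only. NEUROG1, all 4 probes of GATA4 and 1 probe of RUNX3 were detected on no array, which makes 6 probes.

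**Figure D2:**
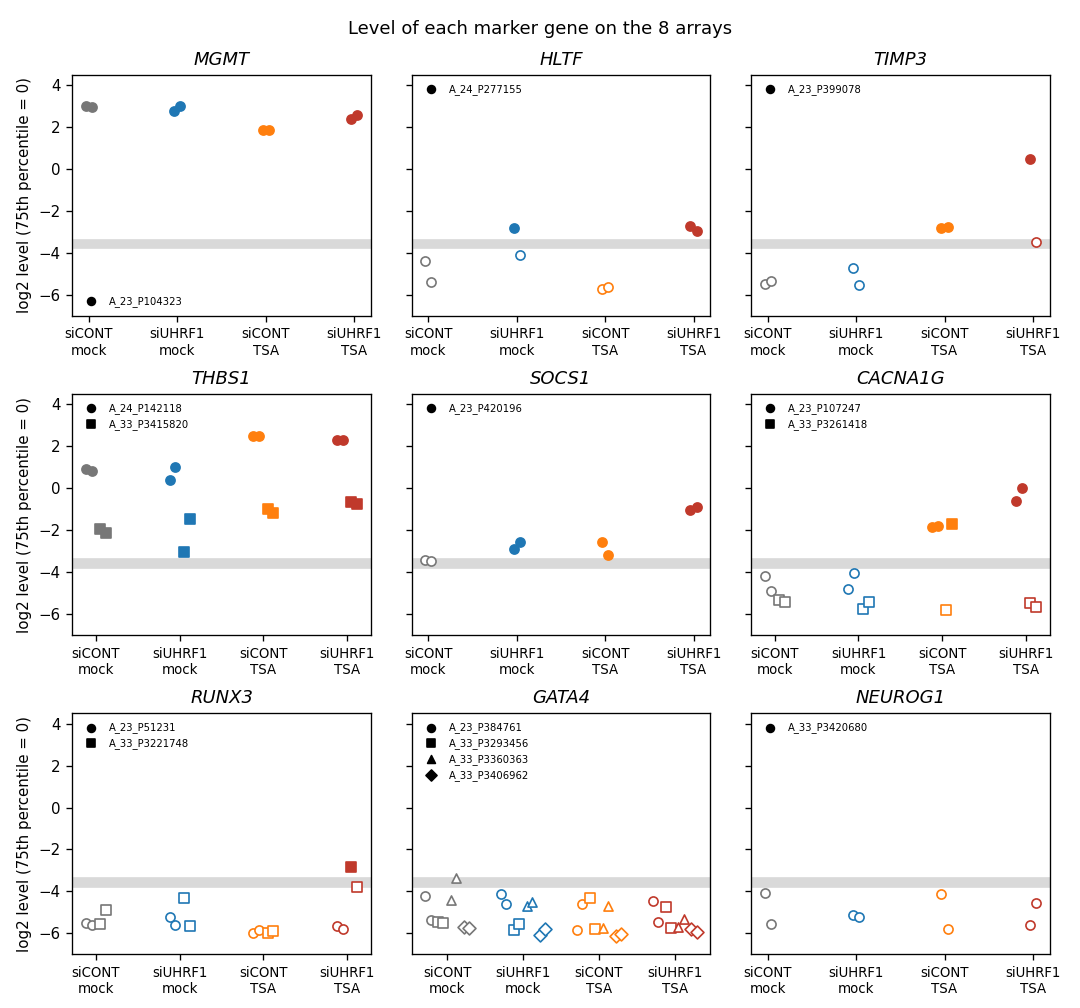
Log2 level (y axis, 0 is the 75th percentile of the array) of each marker gene on the 8 arrays, by group (x axis); the left point of a pair is replicate 1 or siUHRF1-1, the right point replicate 2 or siUHRF1-2, and symbols separate the probes of a gene. Filled points were well above background and hollow points were not, and the grey band spans the lowest detected levels of the arrays (-3.79 to -3.37). MGMT and THBS1 are filled throughout, SOCS1 and CACNA1G are highest in siUHRF1 with TSA, and GATA4 and NEUROG1 stay hollow.

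A probe was tested in a comparison where it was detected on both arrays of at least 1 group compared. It was called where the fitted change, which also uses values not well above background, reached 2-fold with an adjusted p (Benjamini-Hochberg) under 0.05. UHRF1 depletion under mock changed none of the 4 marker probes tested, against 4.12% of all probes tested. At an unadjusted p under 0.05 in limma there was 1, SOCS1, short of 2-fold, and 0 with 6 samples, and the t-test of the study's methods called 0. TSA in siCONT cells changed 3 of 6 (2 higher, 1 lower), against 18.6% of all probes. The combination changed 4 of 6 against 25.6%, UHRF1 depletion under TSA 3 of 7 against 8.27%, and TSA in UHRF1-depleted cells 4 of 6 against 20.7%, all of them higher. With 6 samples the counts were 0, 0, 2, 0 and 3 in the same order, and the shares of all probes were 0.0223%, 1.56%, 15.4%, 0.692% and 17.6%. Probes that entered the test only through the first group of a comparison, where they are high, numbered 1 of 4, 3 of 6, 3 of 6, 1 of 7 and 2 of 6 in this order, and 3 of the 4 called in the combination were among them. Such probes were selected through the group where they are high, so counts and medians over the probes tested are a description and support nothing. The 15 probes are the full set. The median change of the tested probes was -0.13, 1.28, 1.72, 1.31 and 1.57 in these comparisons, beside medians of -0.10, -0.11, -0.14, 0.00 and -0.04 over all probes tested. The first 3 comparisons share the siCONT mock arrays.

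The interaction, the log2 change with UHRF1 depletion under TSA less the same change under mock, was called for none of the 7 marker probes tested by limma, against 4.89% of all probes (0% with 6 samples), and 3 of them (MGMT, CACNA1G and SOCS1) had an unadjusted p under 0.05 (1 with 6 samples). For no marker gene was it therefore shown that the UHRF1 effect differed between TSA and mock.

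MGMT and HLTF act on DNA. MGMT, a methyltransferase that removes alkyl groups from guanine, was detected in all groups, and its probe A_23_P104323 spans an intron (hg19 chr10:131506282-131557499, plus strand). As the only marker gene that fell, its probe is shown: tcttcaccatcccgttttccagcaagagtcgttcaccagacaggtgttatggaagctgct. The levels were 2.99 and 2.97 in siCONT with mock, 2.79 and 2.99 with siUHRF1-1 and siUHRF1-2 under mock, 1.87 and 1.89 in siCONT with TSA, and 2.41 and 2.58 in the combination. Both siCONT TSA arrays lay below all others, and the siUHRF1 mock arrays overlapped the siCONT mock arrays. TSA lowered MGMT in siCONT cells by 2.15-fold (log2 change -1.11, SE 0.13, limma adjusted p = 0.0019, and 0.148 with 6 samples). The change kept its sign but came just under 2-fold with quantile normalization, at -0.998, with scaling to detected probes, at -0.97, and with normexp background correction, at -0.96. In the combination MGMT lay 1.40-fold below siCONT with mock (log2 -0.48, SE 0.13, adjusted p = 0.0227, and 0.282 with 6 samples), short of the 2-fold minimum. Under TSA the siUHRF1 arrays lay 1.54-fold above siCONT (adjusted p = 0.0255, and 0.402 with 6 samples), also short of it. UHRF1 depletion under mock gave -0.09 (95% confidence interval -0.40 to 0.22, adjusted p = 0.643).

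HLTF, a helicase-like ubiquitin ligase of the DNA damage tolerance pathway, was detected on 1 of 2 arrays of UHRF1 depletion alone, on both combination arrays and on no siCONT array. Its probe A_24_P277155 (hg19 chr3:148748391-148748450, minus strand) gave levels of -4.39 and -5.37 in siCONT with mock and -5.70 and -5.63 in siCONT with TSA, all not well above background. They were -2.83, detected, and -4.09, not detected, with siUHRF1-1 and siUHRF1-2 under mock, and -2.72 and -2.97, both detected, in the combination. All siUHRF1 arrays lay above all siCONT arrays, but the closest values, -4.09 and -4.39, were both not well above background. HLTF rose at least 1.47-fold in the combination against siCONT with mock (limma adjusted p = 0.0145, and 0.0661 with 6 samples) and at least 1.86-fold with UHRF1 depletion under TSA (adjusted p = 0.0153, and 0.127 with 6 samples). An "at least" fold is given where no array of the other group was detected. It sets the brighter group against the lowest detected level of those arrays or the probe's own level, whichever is higher. The adjusted p and the call beside such a fold belong to the fitted change, which uses the values not well above background. For HLTF the fitted log2 changes were 2.04 and 2.82, while both bounds lay under 2-fold. The measured levels stood near the detection limit, and the call in the combination was lost without siCONT mock replicate 2 (adjusted p = 0.0753), siUHRF1-1 with TSA (0.0719) or siUHRF1-2 with TSA (0.0535), and that under TSA without siCONT TSA replicate 1 (0.0935) or 2 (0.0901) or siUHRF1-1 with TSA (0.066). With normexp background correction and its offset of 50, which compresses dim values, the fitted log2 changes were 0.16 and 0.47 and neither was called. TSA in UHRF1-depleted cells gave 0.62 (SE 0.47, adjusted p = 0.345), with overlapping arrays.

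TIMP3 and THBS1 encode secreted proteins. TIMP3, a matrix-bound inhibitor of metalloproteinases, was measured by A_23_P399078 (hg19 chr22:33258540-33258599, plus strand). It was not well above background under mock, at levels of -5.46 and -5.36 in siCONT and of -4.71 and -5.55 with siUHRF1-1 and siUHRF1-2. In siCONT with TSA it was detected at -2.80 and -2.78. In the combination it was 0.49 with siUHRF1-1, an intensity of 211 and the highest TIMP3 value, and -3.46 with siUHRF1-2, an intensity of 14.9 and not detected. The UHRF1 siRNAs thus differed at least 15.5-fold under TSA, and in between lay both siCONT TSA arrays. Against siCONT with mock the siCONT TSA level was higher by at least 1.52-fold, which was not called (limma adjusted p = 0.116, and 0.454 with 6 samples). Without siUHRF1-1 with TSA its adjusted p was 0.0041, and without siUHRF1-2 with TSA 0.0040, since the spread between these arrays enters the shared error. The combination against siCONT with mock was not tested, since only 1 array of the group detected the probe, and the mean of its arrays was at least 3.77-fold higher. UHRF1 depletion under TSA gave 1.31 (SE 1.15, adjusted p = 0.462), which was -0.67 without siUHRF1-1 with TSA (adjusted p = 0.258) and 3.28 without siUHRF1-2 with TSA (adjusted p = 0.0127).

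THBS1, the matrix glycoprotein thrombospondin-1, known as an inhibitor of angiogenesis, was detected on every array by both of its probes. A_24_P142118 (hg19 chr15:39888831-39888890, plus strand) gave 0.90 and 0.85 in siCONT with mock, 0.40 and 1.00 with siUHRF1-1 and siUHRF1-2 under mock, 2.51 and 2.49 in siCONT with TSA, and 2.28 and 2.29 in the combination. Every TSA array lay above every mock array. TSA raised THBS1 by 3.08-fold in siCONT cells (log2 1.62, SE 0.20, limma adjusted p = 0.0023, and 0.114 with 6 samples) and by 2.99-fold in UHRF1-depleted cells (log2 1.58, SE 0.20, adjusted p = 0.0021, and 0.0206 with 6 samples). The combination stood 2.66-fold above siCONT with mock (adjusted p = 0.0024, and 0.0508 with 6 samples). UHRF1 depletion gave -0.17 under mock (95% confidence interval -0.66 to 0.31, adjusted p = 0.585) and -0.21 under TSA (95% confidence interval -0.70 to 0.27, adjusted p = 0.492). Its interaction came to -0.04 (SE 0.28, adjusted p = 0.941).

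The second THBS1 probe, A_33_P3415820 (hg19 chr15:39874546-39874605, plus strand), lies nearer the start of the transcript, and its sequence is shown because the 2 probes differed in what was called: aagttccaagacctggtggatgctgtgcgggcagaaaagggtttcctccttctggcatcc. It gave -1.94 and -2.14 in siCONT with mock, -3.02 and -1.49 with siUHRF1-1 and siUHRF1-2 under mock, -0.996 and -1.19 in siCONT with TSA, and -0.66 and -0.73 in the combination. Again every TSA array lay above every mock array, but the siUHRF1 mock arrays stood 2.88-fold apart. The change with TSA in siCONT cells was 0.95 (SE 0.45, limma adjusted p = 0.142), and that in the combination 1.34 (SE 0.45, adjusted p = 0.0516, 0.21 with 6 samples, and 0.0013 without either siUHRF1 mock array). TSA in UHRF1-depleted cells raised it by 2.94-fold (log2 1.56, adjusted p = 0.0376, and 0.0957 with 6 samples). That call was lost when any array other than siUHRF1-2 with mock was left out, with log2 changes from 0.79, without siUHRF1-1 with mock, to 1.59.

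SOCS1 and CACNA1G act in signalling and at the membrane. SOCS1, a feedback inhibitor of JAK/STAT cytokine signalling, was measured by A_23_P420196 (hg19 chr16:11348384-11348443, minus strand). Its levels were -3.44 and -3.48 in siCONT with mock, both not well above background, and -2.90 and -2.57 with siUHRF1-1 and siUHRF1-2 under mock. They were -2.55 and -3.17 in siCONT with TSA, and -1.03 and -0.87 in the combination. The single agents overlapped each other, and both combination arrays lay above all others. SOCS1 rose at least 5.44-fold in the combination against siCONT with mock (limma adjusted p = 0.00055, and 0.0102 with 6 samples). UHRF1 depletion under TSA raised it by 3.76-fold (log2 1.91, SE 0.23, adjusted p = 0.0068, and 0.0795 with 6 samples), and TSA in UHRF1-depleted cells by 3.45-fold (log2 1.79, SE 0.23, adjusted p = 0.0022, and 0.0099 with 6 samples). Neither agent alone was called: the level was at least 1.58-fold higher with UHRF1 depletion (adjusted p = 0.0982) and at least 1.45-fold higher with TSA (adjusted p = 0.0811). With normexp correction the fitted log2 changes of the combination, of UHRF1 depletion under TSA and of TSA in UHRF1-depleted cells were 0.84, 0.85 and 0.78, under 2-fold. The interaction was not called (adjusted p = 0.0815, and 0.523 with 6 samples), and its size is not given, since siCONT with mock has only a bound.

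CACNA1G encodes the pore of a T-type calcium channel and is a classical CIMP marker. Its probe A_23_P107247 (hg19 chr17:48704244-48704303, plus strand) was not well above background on all mock arrays, at -4.16 and -4.92 in siCONT and -4.81 and -4.03 with siUHRF1-1 and siUHRF1-2. It was detected at -1.86 and -1.79 in siCONT with TSA and at -0.62 and -0.01 in the combination. The 3 tiers did not overlap: mock was lowest, TSA alone in between and the combination highest. CACNA1G rose with TSA at least 2.97-fold in siCONT cells (limma adjusted p = 0.0032, and 0.0793 with 6 samples) and at least 9.77-fold in UHRF1-depleted cells (adjusted p = 0.0007, and 0.0041 with 6 samples). In the combination it rose at least 8.48-fold above siCONT with mock (adjusted p = 0.00049, and 0.0091 with 6 samples). Under TSA, UHRF1 depletion raised it by 2.86-fold (log2 1.52, SE 0.37, adjusted p = 0.0404, and 0.257 with 6 samples). That last call was lost when any siCONT array or either TSA siUHRF1 array was left out, with adjusted p from 0.0552 to 0.181 and changes from 1.21 to 1.82. With normexp correction TSA in siCONT cells gave 0.55 and UHRF1 depletion under TSA 0.91, both under 2-fold. The interaction was not called (adjusted p = 0.15, and 0.62 with 6 samples) except with normexp correction, and its size is not given, since both mock groups have only bounds.

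The second CACNA1G probe, A_33_P3261418 (hg19 chr17:48683774-48683833, plus strand), is annotated to another transcript and did not follow the first. It was detected on a single array, siCONT with TSA replicate 2, at -1.69, an intensity of 52.4. On the remaining 7 arrays it lay between -5.79 and -5.32, so that replicate 1 of the same group stood at -5.79. The probe was tested in no comparison.

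**Figure D3:**
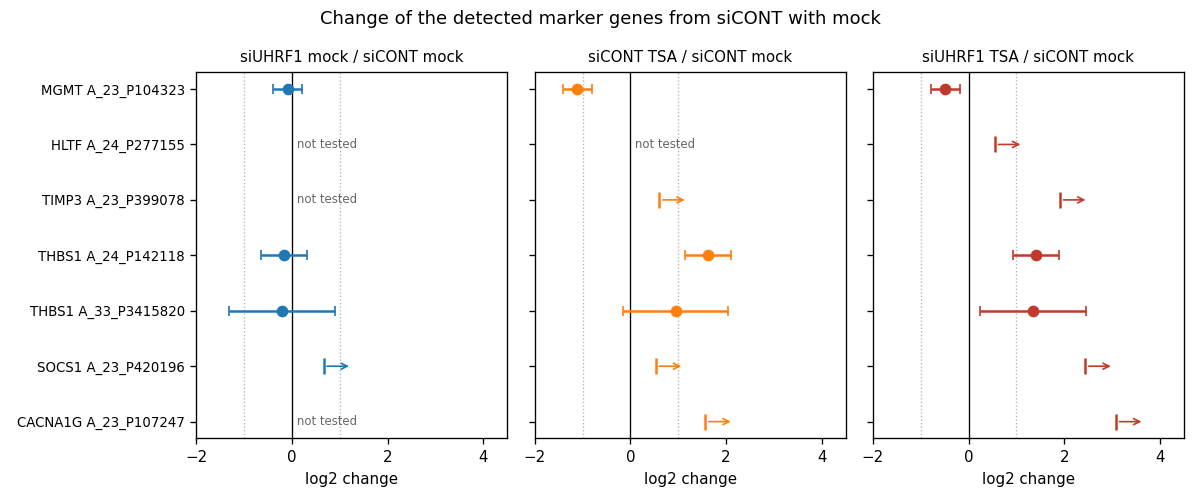
Log2 change (x axis) of the marker probes detected on both arrays of a group, for siUHRF1 with mock, siCONT with TSA and siUHRF1 with TSA, each against siCONT with mock. Points are limma estimates with 95% confidence intervals, arrows start at the lower bound where siCONT with mock was not well above background, and dotted lines mark 2-fold; TIMP3 in the right panel is a bound that was not tested. The bounds of SOCS1 and CACNA1G are largest in the right panel (5.44-fold and 8.48-fold), and MGMT lies below 0 in each panel.

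RUNX3, GATA4 and NEUROG1 are transcription factors: RUNX3 of the RUNT family and a mediator of TGF-beta signalling, GATA4 a zinc finger factor of endoderm and heart, and NEUROG1 a factor of neuronal differentiation. None of them was detected on both arrays of any group. The RUNX3 probe A_33_P3221748 (hg19 chr1:25227538-25227597, minus strand) was detected at -2.85 with siUHRF1-1 under TSA. With siUHRF1-2 under TSA it was -3.81, not well above background, and the other 6 arrays lay between -6.01 and -4.32. Both combination arrays were thus its highest, with a group mean at least 1.05-fold over siCONT with mock and at least 1.21-fold above UHRF1 depletion alone, and no test was made. Its other probe, A_23_P51231 (hg19 chr1:25226333-25226392, minus strand), lay between -5.97 and -5.23 on all arrays.

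The 4 GATA4 probes, all on hg19 chromosome 8, lay between -6.13 and -3.35 and were well above background on none of the 8 arrays. The highest of these values belonged to A_33_P3360363 in siCONT with mock replicate 2. The NEUROG1 probe A_33_P3420680 (hg19 chr5:134870063-134870122, minus strand) ran from -5.82 to -4.06 with no detection. RNA of these genes was not detectable by these probes in any group, which does not show that it was absent.

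To see how the marker genes compare with genes of the same kind, 40 other genes known to be methylated in colorectal cancer were read with 1 probe each, the brightest. Of these, 10 were detected on all arrays and 18 on none. On both combination arrays 5 genes were detected that no siCONT mock array detected: DKK1, UCHL1, DAPK1, HIC1 and VIM. DAPK1 was also detected on both arrays of each single agent, at means of -2.17 with UHRF1 depletion and -2.86 with TSA, against -2.72 in the combination. VIM was also detected on both siCONT TSA arrays. The combination changed 7 of the 16 tested, with 6 higher and 1 lower, beside 25.6% of all probes, with a median change of 0.45 beside -0.14 over all probes. Of these 16, 5 entered the test only through the combination, where they are high, and 4 of the 6 higher calls were among them, so count and median are a description. With 6 samples 8 were called, the added gene being DAPK1. TSA in siCONT changed 4 of 13 beside 18.6% of all probes, and UHRF1 depletion under mock none of 12 beside 4.12%, with 5 at an unadjusted p under 0.05 in limma and 2 with 6 samples. UHRF1 depletion under TSA changed 5 of 16, all higher, beside 8.27%, and TSA in UHRF1-depleted cells 6 of 16 beside 20.7%. In each of these comparisons 4 genes entered the test only through the combination, where they are high, and 3 of the calls were among them. These counts are therefore a description too. With 6 samples 2 and 6 were called, beside 0.692% and 17.6% of all probes.

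UCHL1 is a ubiquitin hydrolase of neurons. Its levels lay between -6.13 and -5.70 on the other 6 arrays and were 0.70 and 0.51 in the combination, at least 16.0-fold above siCONT with mock (limma adjusted p = 2.6e-05, and 0.0043 with 6 samples). DKK1, a secreted antagonist of Wnt signalling, lay between -5.71 and -4.26 elsewhere and reached 1.21 with siUHRF1-1 and -0.84 with siUHRF1-2 under TSA, at least 12.0-fold higher (adjusted p = 0.0020, and 0.0206 with 6 samples). In both genes only the combination was detected, a pattern that SOCS1 and CACNA1G, seen also with TSA alone, did not have. The interaction was called for UCHL1, DKK1 and IGF2, a growth factor, in the fit to 8 arrays (adjusted p = 0.00047, 0.026 and 0.0071) and for none of them with 6 samples. UCHL1 and DKK1 entered that test only through the combination, where they are high, and were not well above background in the other groups. Their interaction calls are therefore a description.

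VIM, the intermediate filament vimentin, was like CACNA1G in being detected on all TSA arrays and on no mock array, with 0.41 and 0.45 in siCONT with TSA and 0.81 and 1.21 in the combination. It rose at least 14.1-fold with TSA in siCONT (adjusted p = 0.00045, and 0.0359 with 6 samples) and at least 21.2-fold in the combination (adjusted p = 0.00016, and 0.0058 with 6 samples). IGF2 was detected throughout, at 0.33 and 0.39 in siCONT with mock, and rose by 2.11 on the log2 scale with TSA and by 4.82 in the combination (adjusted p = 2.6e-05, and 0.0049 with 6 samples). NDRG4, a stool DNA marker of colorectal cancer, rose by 3.85 in the combination (adjusted p = 0.00055, and 0.0127 with 6 samples) and HIC1, a transcriptional repressor, at least 1.496-fold (adjusted p = 0.0079, and 0.0343 with 6 samples). The HIC1 bound lay under 2-fold, and its call belongs to the fitted change. RASSF1, a scaffold of Hippo signalling, fell by 1.48 (adjusted p = 0.0006, and 0.0288 with 6 samples). Its mean level in siCONT with mock was 3.20. The interferon regulator IRF8 fell with TSA in siCONT, at least 5.10-fold (adjusted p = 0.0016, and 0.0793 with 6 samples).

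**Figure D4:**
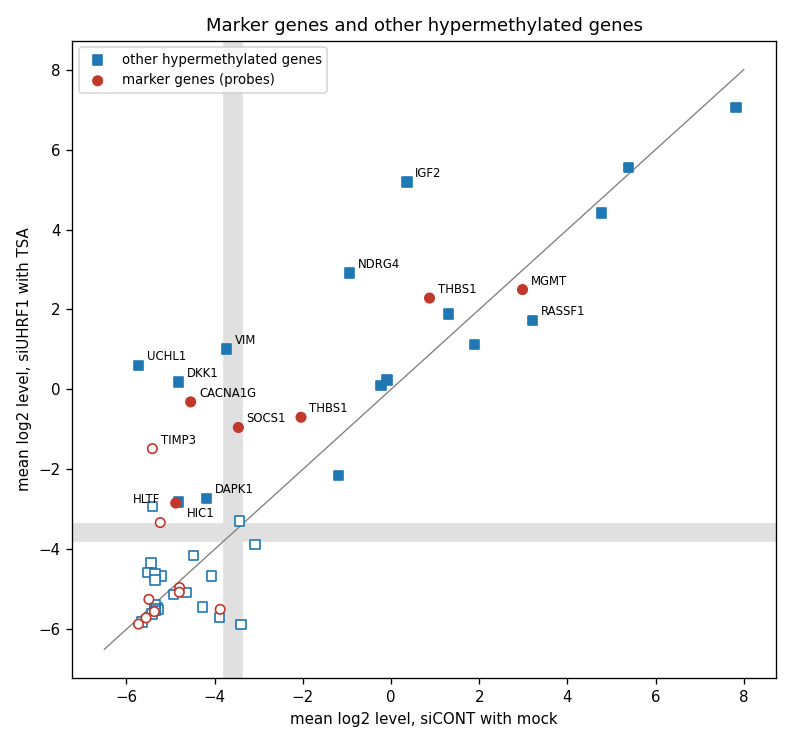
Mean log2 level in siCONT with mock (x axis) and in siUHRF1 with TSA (y axis) of the 15 marker probes (red circles) and of 40 other genes methylated in colorectal cancer (blue squares). Filled symbols were well above background on both combination arrays, the grey bands span the lowest detected levels, and the line marks equal levels. UCHL1, DKK1, VIM, CACNA1G, SOCS1, HIC1, DAPK1 and HLTF sit at or left of the vertical band and above the horizontal one, while MGMT and RASSF1 lie below the line.

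The 27 relatives of the marker genes, which belong to the same families or act in the same repair, were mostly expressed: 18 were detected on all arrays and 3 on none, and none was brought up by the combination in the way described above. The combination changed 5 of 20 tested, 3 higher and 2 lower, near the 25.6% of all probes, with a median change of -0.07. Of these 20, 2 entered the test only through the combination, and both were called. TSA in siCONT changed 5 of 20 beside 18.6% of all probes, and UHRF1 depletion under mock 1 of 20 beside 4.12%. The single relative called under mock was SOCS2, which rose by 1.27 (limma adjusted p = 0.0326, and 0.428 with 6 samples).

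TIMP2, which inhibits metalloproteinases as TIMP3 does, was detected throughout and rose with TSA by 2.67 on the log2 scale in siCONT (adjusted p = 0.0003, and 0.0456 with 6 samples) and by 2.48 in the combination (adjusted p = 0.00015, and 0.0103 with 6 samples), from a siCONT mock mean of 4.01. CISH, a cytokine signalling suppressor related to SOCS1, went the other way and fell by 3.15 with TSA (adjusted p = 0.00041, and 0.0455 with 6 samples) and by 2.86 in the combination (adjusted p = 0.00026, and 0.0106 with 6 samples). SOCS2 rose by 1.02 with TSA in siCONT (adjusted p = 0.0175) and stood at -0.33 in the combination (adjusted p = 0.289). SOCS6 rose by 1.34 in the combination (adjusted p = 0.0264), and so did CACNA1H, another T-type channel, by 2.25 (adjusted p = 0.0478), while CBFB, the partner of RUNX3, fell by 1.04 (adjusted p = 0.0155). SOCS6 and CACNA1H were each detected on 1 of the 2 siCONT mock arrays, so these folds rest partly on a value not well above background. SOCS7 fell by 1.12 with TSA in siCONT (adjusted p = 0.0227). None of SOCS2, SOCS6, SOCS7, CACNA1H and CBFB was called in these comparisons with 6 samples.

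The genes whose levels ran most alike to those of a marker probe were looked for among 24580 probes by Pearson r over the 8 arrays, which share groups and slide. The highest r was 0.996 with SRCRB4D for CACNA1G, 0.990 with SHANK3 for SOCS1, 0.995 with ND2 for MGMT, 0.997 with ISG20 for TIMP3 and 0.978 with CECR1 for HLTF. Next came KRTAP3-1 for CACNA1G, FLJ22184 for MGMT, OS9 for TIMP3 and DMRTB1 for HLTF. Both THBS1 probes had ABCB1 among their closest, at 0.995 for A_24_P142118, where NEAT1 stood higher at 0.996, and at 0.984 for A_33_P3415820, followed by PRCP. Such values are a description, since a search this wide over 8 arrays in 4 groups finds high r for many probes.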

How the data were processed

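RNA of DLD1 cells was measured on 8 Agilent single-colour arrays. The deposited files hold spot intensity on a linear scale, background-subtracted by the authors' run of Feature Extraction 10.7.3.1 (version 10.7 in the submitters' processing notes), and not scaled between arrays. The array design uses hg19. The deposited series table held the same intensity values to within 0.995 to 1.00 times. All arrays lay on 1 slide, with 43.3% to 48.0% of probes well above background, and their number limits the precision.

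Levels are log2 intensities from which the 75th percentile of each array's non-control probes was subtracted. Spots of a probe were averaged without feature outliers. Groups came from the labels. The 6 comparisons used limma 3.58.1 under R 4.3.3 across all 24591 probes detected on both arrays of a group, with 4 group means (4 residual degrees of freedom, prior 2.17). Tests were two-sided, with adjusted p under 0.05 and at least 2-fold as the call. The fit to 6 samples had 2 residual degrees of freedom and a prior of 3.26. The fits were tested on simulated data for probes detected on all arrays, with the same spread for a probe in every group. That simulation does not cover dim probes or the smaller spread between siCONT arrays. Where a listed gene had several probes, that with the highest mean was read.

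Every marker probe is named, with UHRF1. Of each list, the genes called with the largest change (at most 5 in each direction) or brought up by the combination are named, and for each detected marker probe the 2 genes most like it, leaving out unnamed loci; 1 of these genes is not reported here. The members and lists were chosen with earlier results of these data known. Promoters came from RefSeq, and CpG counts and figures were made in Python with pandas and matplotlib. Alternatives were the t-test of the study's methods, averaged siCONT arrays, a replicate block, other scalings, background correction, filters and variance models, and leaving out each array.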

Additional observations from a re-analysis of the deposited data

How the results depend on the processing

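Of the log2 changes of single probes under the alternatives, 833 kept their direction and side of the threshold, 94 lost it, 19 gained it and 11 changed sign. The number of marker probes called was 3 for TSA in siCONT, 4 for the combination, 3 for UHRF1 depletion under TSA, 4 for TSA in UHRF1-depleted cells, and 0 for the interaction and for UHRF1 depletion under mock. With the siCONT arrays averaged to 1 sample, it was 0 for TSA in siCONT, 2 for the combination and 0 for UHRF1 depletion under TSA, while the calls over all probes went from 4319 to 362, from 6078 to 3660 and from 1971 to 165. The methods' t-test after adjustment called no probe for UHRF1 depletion under mock or under TSA, or for TSA in depleted cells (0 each). That test and the fit to only the groups compared were not run for the interaction. Normexp background correction, which compresses dim probes by construction, gave 1, 2, 0 and 2 for the first 4 comparisons and 1 for the interaction. With only probes detected on all arrays, which leaves 3 marker probes, the combination gave 2, UHRF1 depletion under TSA 0 and TSA in UHRF1-depleted cells 2. Leaving out 1 array left 1 array in its group, and a probe detected on that array alone then entered the test. HLTF did so under mock without siUHRF1-2, and CACNA1G A_33_P3261418 without siCONT TSA replicate 1. Counts of calls from these fits are therefore not set beside the main counts. Fewer marker probes were called for UHRF1 depletion under TSA when any siCONT array or siUHRF1-1 with TSA was left out. The combination and TSA in UHRF1-depleted cells also lost calls in some of these fits. In the siUHRF1 groups the replicate number is that of the siRNA, and deviations correlated at 0.34 between siUHRF1 mock and TSA arrays. Between the other groups they correlated at -0.06 to 0.07, and the labels pair none of those arrays. The main fit did not pair arrays by siRNA. With a replicate block the counts were 3, 4, 2, 4, 0 and 0, the lost call being CACNA1G with UHRF1 depletion under TSA (adjusted p = 0.0581). Median scaling moved the median change of all probes in the combination to -0.54 from -0.14, with 31.6% of calls higher in place of 56.8%, and scaling to detected probes gave 72.0%; neither turned the sign of a marker probe. The number of all probes called in the combination ran from 2639 with normexp correction to 8202 with median scaling, against 6078.

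Signs turned in results that were not called. The THBS1 A_24_P142118 interaction was 0.033 with quantile normalization, SOCS1 with TSA in siCONT was -0.015 with normexp correction, and the interaction of the UHRF1 probe A_33_P3379454 was 0.31 with it. Leaving out 1 array gave, for UHRF1 depletion under mock, -0.19 to 0.0065 for MGMT, -0.47 to 0.13 for THBS1 A_24_P142118 and -0.98 to 0.55 for THBS1 A_33_P3415820, the higher value each time without siUHRF1-1. It gave -0.34 to 0.26 and -0.15 to 1.37 for the interactions of these THBS1 probes, with siUHRF1-1 and siUHRF1-2 under mock setting the ends, and -0.015 to 1.25 for HLTF with TSA in UHRF1-depleted cells (-0.015 without siUHRF1-2 with mock). TIMP3 ran from -0.67 to 3.28 for UHRF1 depletion under TSA and from -0.95 to 3.002 for the interaction (fitted values, with mock levels not well above background), the lower ends without siUHRF1-1 with TSA and the upper without siUHRF1-2 with TSA.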
